A study of Sus scrofa with 61 samples.

Results

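Muscle gene expression was compared between the reciprocal crosses of Large White (LW) and Meishan (MS) pigs close to birth. The comparison used every non-control probe on the arrays of the 13 crossbred fetuses of day 110 of gestation, out of the 61 fetuses of the study. Of these, 5 were MSLW fetuses, from a LW sow and a MS boar, and 8 were LWMS fetuses, from a MS sow and a LW boar. LW is a lean and fast growing European breed and MS a fat and prolific Chinese breed whose piglets are known to survive birth well. All fetuses were males obtained by caesarean, and RNA of the longissimus dorsi, a back muscle, was hybridized to 1-colour porcine oligonucleotide arrays, 1 array per fetus. Sows had been inseminated with mixed semen, so that a litter held purebred and crossbred fetuses: MSLW fetuses were littermates of LW fetuses and LWMS fetuses of MS fetuses. The purebred fetuses of day 110 (9 LW and 7 MS) and the 16 crossbred fetuses of day 90 (8 of each cross) are given beside the crosses where they bear on them. The sow of each fetus is not in the labels, so that the genotype of the sow, her uterus and the litter cannot be told apart, and p-values measure the spread between fetuses, some of which may be littermates.

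Autosomes of both crosses hold 1 LW and 1 MS copy of each gene, and the crosses differ in which parent gave which copy. In imprinted genes only the copy of the father (paternally expressed genes) or only that of the mother (maternally expressed genes) is read. A male fetus has its X chromosome and its mitochondrial genome from the sow and its Y chromosome from the boar. The X chromosome and mitochondrial genome were therefore of LW origin in MSLW fetuses and of MS origin in LWMS fetuses, and the Y chromosome the reverse. A probe that was higher in MSLW and also higher in LW than in MS is described below as following the breed of the sow, and one that was higher in MSLW and higher in MS than in LW as following the breed of the boar. These are names for the sign of a difference and not for a cause.

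The arrays of both crosses resembled each other in overall signal. The scanner marked 40881 to 43474 probes per MSLW array and 37051 to 43708 per LWMS array as well above background, and no spot was saturated. Muscle fibre markers (ACTA1, CKM, DES, TTN, NEB, MYLPF, TNNT3 and MYOG) had a mean level between 16.52 and 16.75 on the log2 scale in MSLW fetuses and between 16.49 and 16.74 in LWMS fetuses. None of the 11 lists of cell type markers had a gene whose brightest probe passed the test, where 1.23% of all genes did. With 2 to 8 genes measured per list, this does not show that the cell types were equal. Of 53 probes of muscle fibre genes 1 passed, higher in MSLW. Some lists leaned 1 way: 0 of 4 macrophage and 0 of 3 smooth muscle genes were higher in MSLW, against 3 of 3 cartilage and 4 of 4 blood genes. The mean level of the 4 blood markers measured was 8.38 to 9.08 in MSLW and 8.28 to 8.63 in LWMS fetuses, and AHSP, which binds free alpha haemoglobin in red cells, was 0.83 higher in MSLW (adjusted p = 0.0359, above the 1% threshold). In RNA of whole muscle, fewer cells of a type and less RNA per cell cannot be told apart.

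Of 42436 probes tested, 387 (0.912%) passed an adjusted p of 1% between MSLW and LWMS fetuses at day 110 and are referred to as called. Of these, 230 (0.542%) were higher and 157 (0.37%) were lower in MSLW. The median difference over all probes was 0.0041 on the log2 scale. In 465 probes (1.1%) the 5 MSLW and the 8 LWMS fetuses did not overlap. For comparison, 12289 probes (29%) differed between MS and LW fetuses of the same day. At day 90, in other fetuses, 212 probes (0.5%) were called between the crosses, 149 higher (0.351%) and 63 lower (0.148%) in MSLW. At both ages 106 probes were called, which was 27.4% of the calls of day 110 and 50% of those of day 90, and all 106 had the same sign at both. The difference between the cross differences of the 2 ages was itself called for 14 probes (0.033%). The counts rest on a spread shared by all 61 arrays. By the brightest probe of each gene with a symbol, 137 of 11094 genes (1.23%) were called and 5973 (53.8%) had a positive difference. With the 13 crossbred fetuses alone 83 probes were called, and without MSLW replicate 3 there were 238.

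The called probes were spread unevenly over the genome. On the mitochondrial genome 30 of 127 probes (23.6%) were called, 29 of them higher in MSLW. On the X chromosome 65 of 795 probes (8.18%) were called, 34 higher and 31 lower in MSLW. On the autosomes the count was 149 of 20689 (0.72%), of which 87 were higher. The 4 probes of the Y chromosome were not called. A further 143 of the 20821 probes with no chromosome in the annotation were called (0.687%). Of these 143 probes, 7 (4.9%) shared a run of at least 25 bases with a probe of an X gene, as did 0.235% of all probes with no chromosome.

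**Figure D1:**
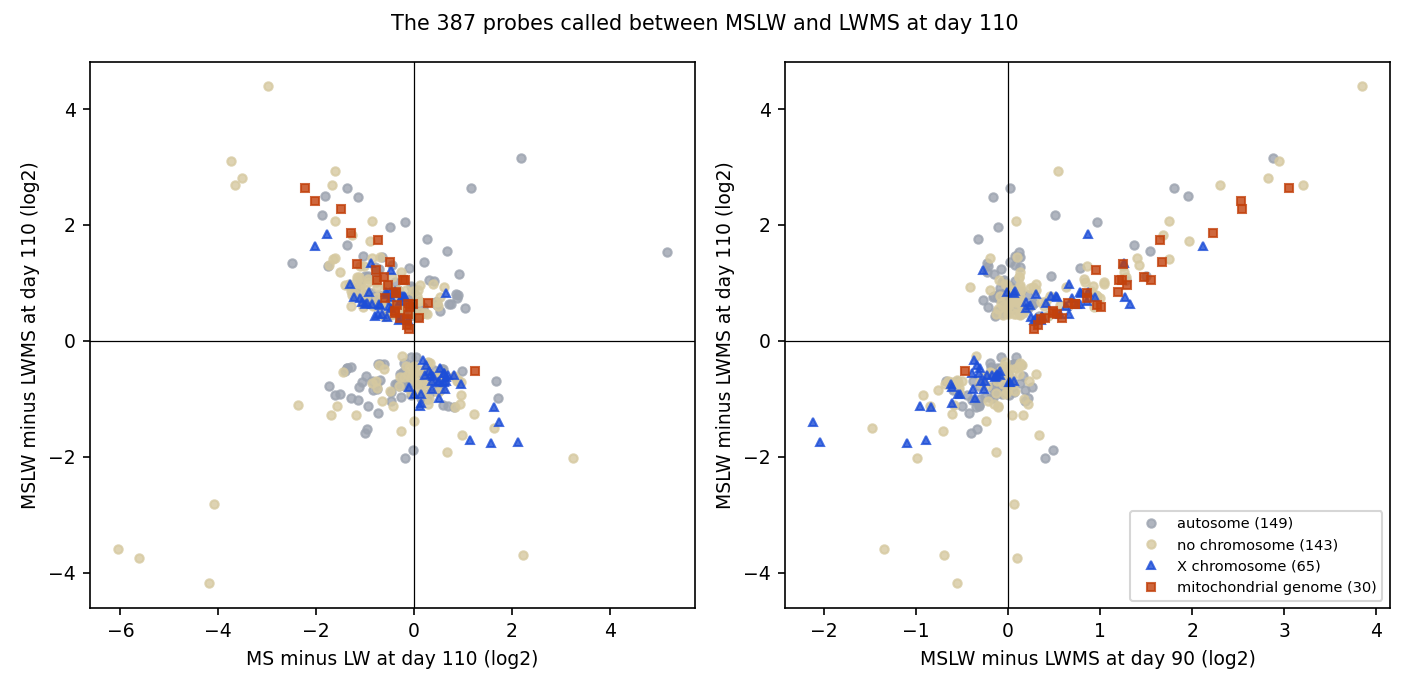
The 387 probes called between the crosses at day 110, with the log2 difference MSLW less LWMS at day 110 on the y axes, against the difference MS less LW in purebred fetuses of day 110 (left, x axis, log2) and against the difference MSLW less LWMS in other fetuses at day 90 (right, x axis, log2). Each point is a probe coloured by its place in the genome. Mitochondrial and X probes lie mostly on the falling diagonal at left, where 18 of 30 and 48 of 65 were called with the opposite sign between MS and LW, and all 30 mitochondrial probes have the same sign at both ages.

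Each class behaved in its own way beside the purebred fetuses, which were other animals. Among the called mitochondrial probes 18 followed the breed of the sow and none that of the boar, while 12 were not called between MS and LW. Over all 127 mitochondrial probes, 65 (51.2%) were called between MS and LW, 47 higher in MS and 18 higher in LW. Only 1 of the 127 was called lower in MSLW, so most of those 47 had no matching call between the crosses. Among the called X probes 48 followed the breed of the sow, 1 that of the boar, and 16 were not called between MS and LW. Among the called autosomal probes 43 followed the sow, 39 followed the boar and 67 were not called between the purebreds. Across called probes, which are not independent and share arrays, the difference at day 110 correlated with that at day 90 at r = 0.973 for mitochondrial, 0.848 for X and 0.497 for autosomal probes. These probes were picked for a large difference at day 110. Over all probes of each class, called or not, r was 0.974, 0.632 and 0.233. Called again at day 90 with the same sign were 30 of 30 mitochondrial, 29 of 65 X and 9 of 149 autosomal probes. Among the autosomal ones were 2 probes of MAGEL2 and 1 each of SLCO4A1, PLEKHD1, TGFBR3, ESR1, HOOK2 and KRT2. On the 5 slides that carried a fetus of each cross, 341 of the 387 probes differed in the same direction on all 5. The arrays of these slides also entered the calls, so this agreement is not a separate test.

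The mitochondrial genome codes for subunits of the respiratory chain, and its probes on the array disagreed within a gene. Called probes of 3 genes are shown with others that share part of their sequence, because the crosses differed by unequal amounts on nearly the same bases. Capitals mark the run of bases that all probes of a set share, read 5′ to 3′ from the deposited scanner files. For ND1, a subunit of complex I, 3 probes share 36 bases:
ND1 A_72_P745561: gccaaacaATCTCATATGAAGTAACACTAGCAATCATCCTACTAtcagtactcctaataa
ND1 A_72_P739924: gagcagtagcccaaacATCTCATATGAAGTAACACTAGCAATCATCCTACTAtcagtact
ND1 A_72_P754234: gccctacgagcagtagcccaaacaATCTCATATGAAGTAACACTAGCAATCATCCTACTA
For CYTB, the cytochrome of complex III, 3 probes share 29 bases:
CYTB A_72_P726128: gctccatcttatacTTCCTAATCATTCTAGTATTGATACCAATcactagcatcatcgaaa
CYTB A_72_P757587: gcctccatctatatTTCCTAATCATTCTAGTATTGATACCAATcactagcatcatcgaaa
CYTB A_72_P749269: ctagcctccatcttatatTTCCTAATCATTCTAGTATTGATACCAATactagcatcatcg
For ND2, also of complex I, 2 probes share 31 bases:
ND2 A_72_P719508: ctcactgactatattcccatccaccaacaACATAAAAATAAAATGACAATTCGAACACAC
ND2 A_72_P727968: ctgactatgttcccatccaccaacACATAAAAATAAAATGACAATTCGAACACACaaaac

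On the first ND1 probe the log2 level was 15.36, 15.46, 15.32, 15.30 and 15.11 in the 5 MSLW fetuses, and 12.16 at the lowest, 12.94 at the median and 13.98 at the highest in the 8 LWMS fetuses. The crosses did not overlap, and the difference was 2.27 (SE 0.25), or 4.83-fold (adjusted p = 2.84e-09). LW fetuses had 14.56 to 15.23 and MS fetuses 12.83 to 13.98, so that each cross lay near the breed of its sow. On the other ND1 probes, in the order shown, the difference was 1.36 (SE 0.14, adjusted p = 1.4e-10) and 1.05 (SE 0.12, adjusted p = 1.05e-08). The last was not called between MS and LW (difference -0.23, adjusted p = 0.0825), although the crosses did not overlap on it either. At day 90 the same 3 probes differed by 2.54, 1.68 and 1.24.

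CYTB and ND2 showed the same inequality. The first CYTB probe read 17.20, 17.27, 17.32, 17.38 and 17.27 in MSLW fetuses against 16.11, 16.19 and 16.44 (lowest, median and highest) in LWMS fetuses, a difference of 1.06 (SE 0.08, adjusted p = 7.08e-16) with no overlap. The next CYTB probe differed by 0.46 (SE 0.06, adjusted p = 1.98e-07), and the last by 0.18 (SE 0.07, adjusted p = 0.183) with overlapping crosses. The first ND2 probe read 15.32, 15.78, 15.66, 15.32 and 15.60 in MSLW fetuses against 11.95, 12.79 and 14.01 in LWMS fetuses. That difference of 2.64 (SE 0.35, adjusted p = 5.96e-07, 6.21-fold) was the largest of the mitochondrial probes, whereas the other ND2 probe differed by 0.85 (SE 0.16, adjusted p = 0.000736).

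Counted over the genes, 8 of 20 ND1 probes were called higher in MSLW and 1 was called lower, with differences from -0.51 to 2.27. ND2 had 7 of 12 probes called higher, COX1 (complex IV) 5 of 25, CYTB 5 of 21, COX3 2 of 14, and ATP6 (ATP synthase) and ND3 1 each. None of the 11 ND4 probes, 5 COX2 probes, 3 ND5 probes, 2 ND6 probes or the single ATP8 and ND4L probes was called. The median of all 127 probes was 0.13. By the brightest probe of each gene only COX3 was called (0.39, SE 0.06, adjusted p = 3.95e-05). Of 52 pairs of probes of one gene that share a run of at least 30 bases, 5 had only 1 probe called and 6 differed from each other by more than 0.5. Whether the breeds differ in the bases under these probes was not tested.

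**Figure D2:**
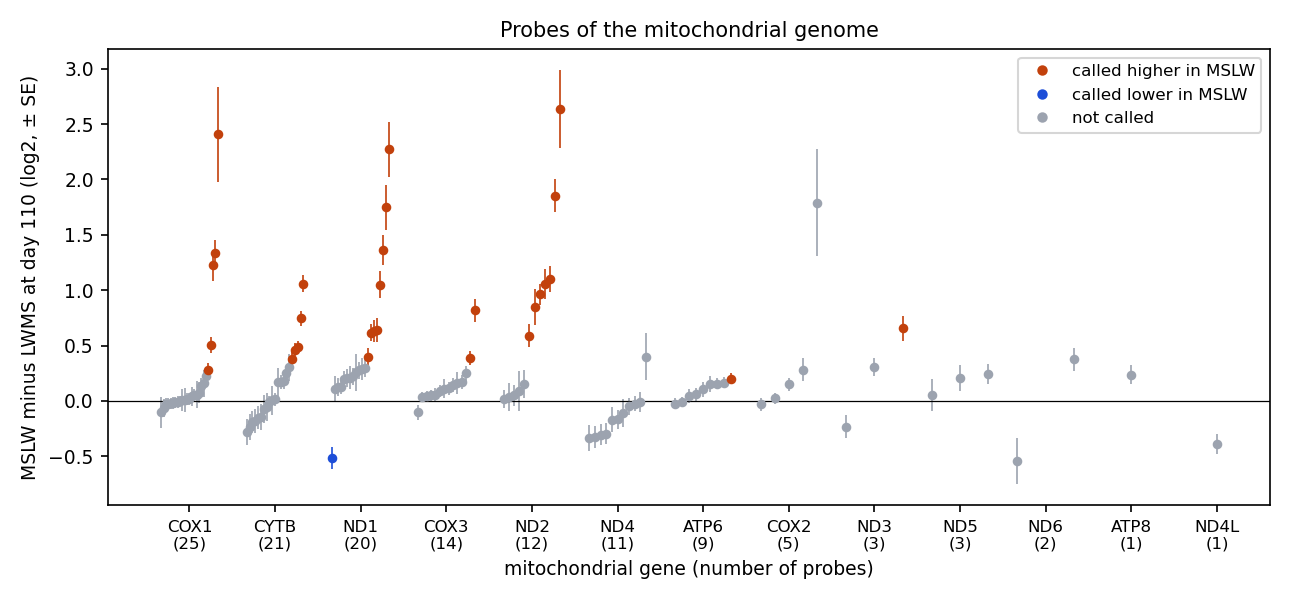
Log2 difference MSLW less LWMS at day 110 (y axis, ± SE of the fit) for each of the 127 probes of the mitochondrial genome, grouped by gene (x axis), with called probes coloured. ND1 and ND2 range widely, up to 2.27 and 2.64, while the 11 probes of ND4 hold no call.

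Nuclear genes of the respiratory chain were set beside these probes. Of 30 measured, 1 was called, where 1.23% of all genes were. It was COX7B, a small subunit of complex IV with no chromosome in the annotation used here. COX7B was at 15.43, 15.60, 15.43, 15.72 and 15.54 in MSLW fetuses and at 14.29, 14.47 and 14.92 (lowest, median and highest) in LWMS fetuses, 2.01-fold apart with no overlap (log2 difference 1.01, SE 0.11, adjusted p = 2.49e-09). It was 1.04 higher in MSLW at day 90 as well, and its probe shares a run of bases with a probe of an X gene. The median of the 30 genes was -0.03, next to 0.01 over all 11094 genes with a symbol, and 12 of the 30 had a positive difference.

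On the X chromosome 33 of the 363 genes measured were called by their brightest probe, 18 higher and 15 lower in MSLW. Of these, 25 followed the breed of the sow, 1 followed that of the boar and 7 were not called between MS and LW. At day 90, 30 of the 33 had the same sign and 13 were called. On the 5 slides with both crosses, whose arrays also entered the calls, 31 of the 33 kept 1 direction, which is not a separate test. Among probes that did not stand for their gene, 1 of SRPX2, a secreted sushi-repeat protein, was picked after its values were seen: it was 1.64 higher in MSLW (SE 0.11, adjusted p = 9.15e-18) at day 110, 2.11 higher at day 90, and followed the breed of the sow (-2.02 for MS less LW).

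CSTF2, a factor for cleaving and polyadenylating mRNA, was at 8.81, 8.80, 8.91, 8.77 and 8.92 in MSLW fetuses and between 7.58 and 8.10 (median 7.90) in LWMS fetuses. The crosses did not overlap and differed by 0.98 (SE 0.10, adjusted p = 1.52e-10), and MS fetuses were below LW fetuses (-1.31). PHKA1, the muscle form of the regulatory subunit of phosphorylase kinase, which switches on glycogen breakdown, went the other way. It was at 11.29, 11.20, 10.51, 11.45 and 11.01 in MSLW fetuses and between 11.63 and 12.24 (median 11.82) in LWMS fetuses, a difference of -0.75 (SE 0.12, adjusted p = 1.78e-05), and a dimmer probe of the gene differed by -1.75 (adjusted p = 3.66e-15). PHKA1 was lower in MSLW at day 90 too (-0.62) and higher in MS than in LW fetuses (0.96), so it followed the breed of the sow. The call of the brighter PHKA1 probe was lost with the 29 fetuses of day 110 (adjusted p = 0.0111) and with the 13 crossbred fetuses alone (adjusted p = 0.0364).

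For some X genes the difference was seen at day 110 and not at day 90. TCEAL1, a modulator of transcription elongation, was at 9.37, 9.50, 9.56, 9.49 and 9.65 in MSLW fetuses and between 8.42 and 8.91 in LWMS fetuses (difference 0.84, SE 0.08, adjusted p = 3.09e-11). At day 90 its difference was -0.01, and the change between the ages was called (0.85, adjusted p = 5e-06). PLP2, a membrane protein of the endoplasmic reticulum, was at 14.12, 14.26, 13.89, 14.27 and 14.08 in MSLW fetuses and between 14.64 and 15.18 in LWMS fetuses (difference -0.71, SE 0.08, adjusted p = 1.32e-08). It differed by 0.0043 at day 90, and the change with age was called on each of its 3 probes (-0.71, -0.76 and -0.73). ITM2A, a membrane protein of developing muscle and cartilage, was 0.86 higher in MSLW (SE 0.13, adjusted p = 7.88e-06), with fetuses at 12.32 to 12.90 against 11.43 to 12.06. Its difference at day 90 was 0.08, and the change with age did not pass the 1% threshold (adjusted p = 0.0287).

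Further X genes were called in both directions. MAOA, which breaks down monoamines in the outer mitochondrial membrane, was lower in MSLW (difference -0.51, adjusted p = 0.000304). ACOT9, a mitochondrial acyl-CoA thioesterase, differed by -0.63 (adjusted p = 9.15e-06) and APOOL, a protein of the mitochondrial cristae, by 0.78 (adjusted p = 2.61e-05). NLGN3, a synaptic adhesion protein, differed by -1.39 (adjusted p = 0.000319) and VEGFD, a growth factor of lymphatic vessels, by -0.83 (adjusted p = 0.00649). TMEM27, known as collectrin and an aid to amino acid transporters, showed the largest rise among the X genes called by their brightest probe (1.84, SE 0.30, adjusted p = 6.44e-05), with MSLW fetuses at 7.63 to 7.96 and LWMS fetuses at 5.83 to 6.19.

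EIF2S3, the gamma subunit of the translation initiation factor that brings in the initiator tRNA, was the exception in direction. It was at 13.18, 12.61, 12.50, 12.27 and 12.67 in MSLW fetuses and between 11.66 and 11.96 (median 11.80) in LWMS fetuses (difference 0.83, SE 0.12, adjusted p = 4.75e-06). MS fetuses were also higher than LW fetuses (0.64), so EIF2S3 followed the breed of the boar, although its X copy came from the sow. Its difference at day 90 was 0.79.

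RPS4X, a protein of the small ribosomal subunit, had a probe whose fetuses lay close together within each cross, and its 60 bases are shown without capitals, as no run is compared:
RPS4X A_72_P565664: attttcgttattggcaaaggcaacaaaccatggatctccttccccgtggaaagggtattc
The probe read 16.01, 15.96, 16.02, 15.81 and 15.97 in MSLW fetuses and stayed between 15.28 and 15.35 in LWMS fetuses. The crosses did not overlap (difference 0.63, SE 0.05, adjusted p = 3.93e-13), and LW fetuses (15.90 to 16.24) and MS fetuses (15.07 to 15.36) were apart as well. This probe was picked after its values were seen, and the brightest probe of RPS4X was not called.

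**Figure D3:**
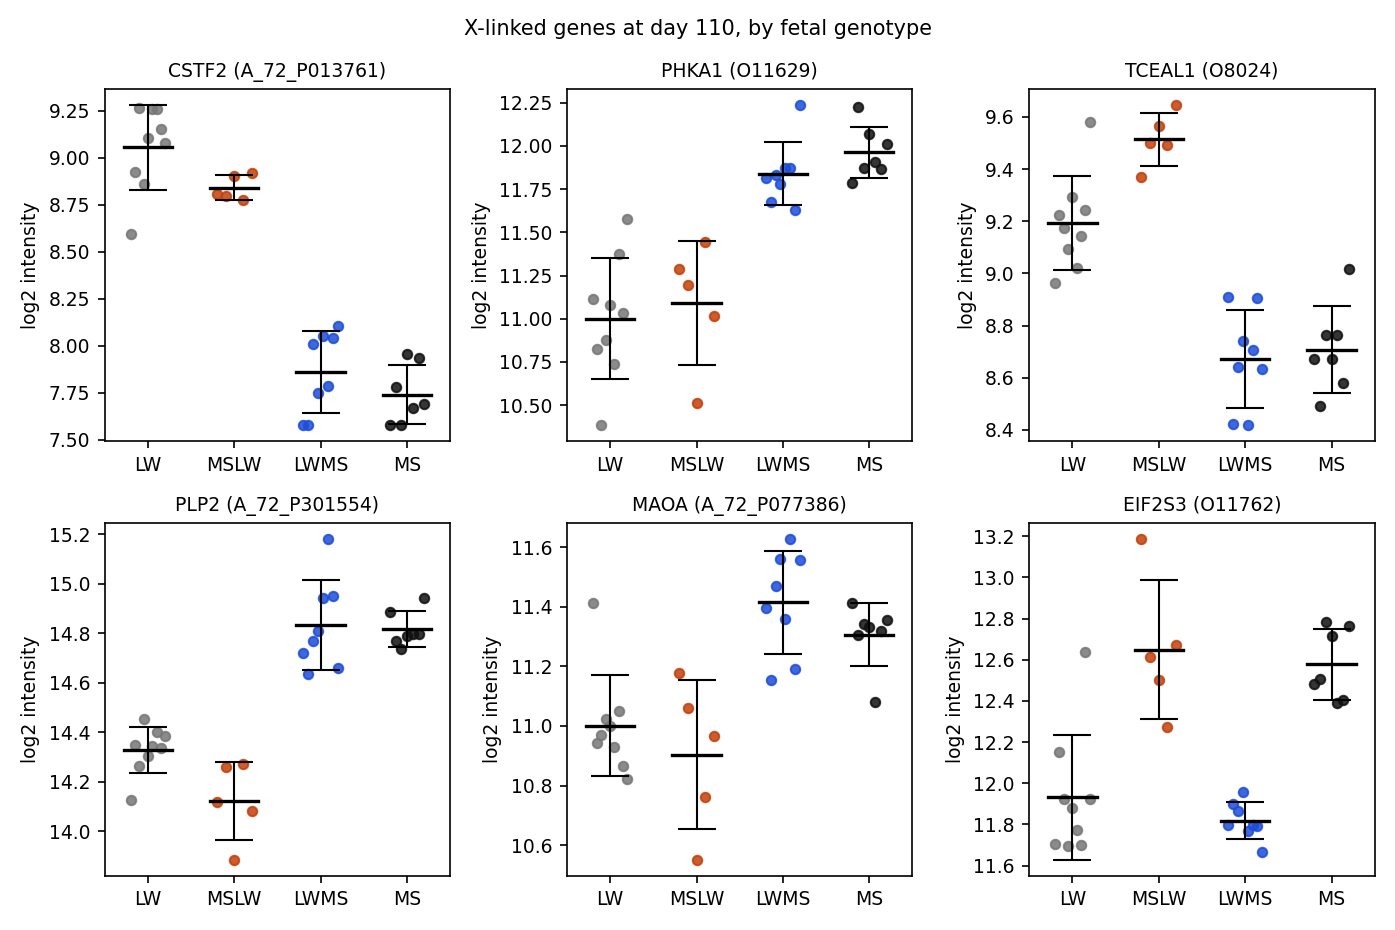
Log2 level of CSTF2, PHKA1, TCEAL1, PLP2, MAOA and EIF2S3 (y axes) in the LW, MSLW, LWMS and MS fetuses of day 110 (x axes), with 1 point per fetus and a bar for the mean ± SD. MSLW fetuses sit beside LW and LWMS beside MS fetuses, except for EIF2S3, where MSLW sits beside MS.

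Genes of the Y chromosome, which came from the MS boar in MSLW and the LW boar in LWMS fetuses, gave no call. The 3 genes of the list that were measured were DDX3Y (0.99, adjusted p = 0.0772), UTY (-0.11, adjusted p = 0.876) and EIF1AY (0.04, adjusted p = 0.863). Of 11 X genes that have a partner on the Y chromosome in mammals, EIF2S3 was called and the other 10 were not, with a median of -0.07 over the 11. Of all 363 X genes measured, 33 were called, a similar share.

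The autosomal probe with the largest difference belonged to an imprinted gene. Of 15 paternally expressed genes measured, MAGEL2 and DIRAS3 were higher and PLAGL1 was lower in MSLW, and the median of the 15 was -0.14. By probe, 10 of 48 were called (20.8%), 3 higher and 7 lower, where 0.912% of all probes were called. All 10 were probes of MAGEL2, DIRAS3, PLAGL1 and IGF2, and probes of 1 gene are not independent. None of 16 maternally expressed genes was called (median 0.01). Probes of 4 paternally expressed genes on which the crosses differed are shown, without capitals:
MAGEL2 A_72_P493343: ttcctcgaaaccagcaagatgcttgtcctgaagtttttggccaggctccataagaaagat
PLAGL1 O12865: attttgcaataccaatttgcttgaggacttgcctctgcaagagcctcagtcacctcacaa
DIRAS3 A_72_P548536: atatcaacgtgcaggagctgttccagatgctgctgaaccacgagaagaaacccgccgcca
IGF2 A_72_P544532: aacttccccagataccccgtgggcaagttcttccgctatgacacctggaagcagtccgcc

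MAGEL2, a ubiquitin ligase cofactor of the Prader-Willi region, stood furthest apart. The probe shown read 7.67, 7.29, 7.82, 7.58 and 7.32 in MSLW fetuses and 3.25, 4.42 and 5.44 (lowest, median and highest) in LWMS fetuses, of which 4 of 8 were well above background. The difference was 3.16 (SE 0.25), 8.93-fold, with an adjusted p of 4.1e-14, and no fetus overlapped. MS fetuses (6.86 to 7.23) lay near MSLW and LW fetuses (3.88 to 5.88) near LWMS, so each cross resembled the breed of its boar. The brighter MAGEL2 probe was well above background in every crossbred fetus and differed by 1.56 (SE 0.14, adjusted p = 6.27e-12), between 1.07 and 1.94 within the 5 slides. At day 90 the differences were 2.88 and 1.54. NDN, its neighbour in the same imprinted region, differed by 0.02 at day 110 (adjusted p = 0.969) and by 0.46 at day 90 (adjusted p = 0.00401).

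PLAGL1, a zinc finger protein that restrains cell growth and sits high in a network of imprinted genes, differed the other way. Its brighter probe read 11.31, 11.28, 11.27, 11.11 and 11.09 in MSLW fetuses and 11.60, 12.05 and 12.34 in LWMS fetuses, without overlap. The difference was -0.79 (SE 0.11, 1.73-fold lower in MSLW, adjusted p = 3.31e-06), and on the probe shown it was -0.98 (SE 0.15, adjusted p = 1.32e-05) with 1 MSLW fetus reaching into the LWMS range. MS fetuses (10.87 to 11.48) were below LW fetuses (11.94 to 12.46), so PLAGL1 also followed the breed of the boar. At day 90 the difference was 0.26 (adjusted p = 0.301), and the change between the ages was called on both probes (-1.05, adjusted p = 8.69e-05, and -1.19, adjusted p = 0.00121). With the 13 crossbred fetuses alone the adjusted p of the brighter PLAGL1 probe was 0.0146.

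IGF2, the fetal growth factor whose paternal copy drives muscle growth, differed less and not on every probe. The probe shown read 15.69, 15.24, 15.66, 15.18 and 15.27 in MSLW fetuses and 15.64, 15.86 and 16.20 in LWMS fetuses, which overlapped slightly (difference -0.51, SE 0.10, 1.43-fold lower, adjusted p = 0.00157). LW fetuses (16.12 to 16.65) were above all MSLW fetuses and overlapped the highest LWMS fetuses, and MS fetuses (14.84 to 15.46) overlapped the lowest MSLW fetuses. Of the 9 IGF2 probes 5 were called lower in MSLW, and the brightest of the gene was not (-0.13, adjusted p = 0.304). The bases of the probe shown are carried by 2 probes of the array. The IGF2 probe shown differed by -0.09 at day 90. H19, the maternally expressed neighbour of IGF2, differed by -0.01 (adjusted p = 0.988).

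DIRAS3, a small GTPase that slows growth, was well above background in 4 of 5 MSLW and in 0 of 8 LWMS fetuses. It read 4.26, 4.85, 5.14, 4.13 and 4.19 in MSLW fetuses and 2.19, 3.47 and 4.04 in LWMS fetuses, at least 1.31-fold higher in MSLW (adjusted p = 0.003). The call of DIRAS3 was lost without MSLW replicate 2, MSLW replicate 3 or LWMS replicate 3 (adjusted p up to 0.0296) and with the median signal, the deposited values, normexp correction, the 29 fetuses of day 110 or the 13 crossbred fetuses alone (adjusted p up to 0.197), and its other probe was not called (0.95, adjusted p = 0.0981).

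PEG10, SGCE, DLK1 and MEG3 differed between the breeds and were not called between the crosses. PEG10, a retrotransposon-derived gene needed in the placenta, was at 13.86, 13.59, 14.22, 13.28 and 13.82 in MSLW and at 13.38 to 14.66 in LWMS fetuses (difference -0.19, 95% interval -0.68 to 0.29, adjusted p = 0.809). Between MS and LW fetuses the difference of PEG10 was -2.70. SGCE, the epsilon sarcoglycan of the muscle membrane and the neighbour of PEG10, differed by -0.15 (interval -0.64 to 0.33, adjusted p = 0.863) between the crosses and by -2.78 between MS and LW. DLK1, an inhibitor of fat and muscle cell differentiation, differed by -0.55 (adjusted p = 0.296) and by -1.86 on its brightest probe. Its other probes differed by -0.11 to 0.09 between the crosses and by -1.46 to -3.37 between MS and LW. MEG3, the maternally expressed long RNA of the DLK1 region, differed by -0.57 (adjusted p = 0.0877) and by -1.66. IGF2R, which clears IGF2, differed by -0.31 between the crosses (adjusted p = 0.0444). ASCL2, a transcription factor, differed by -1.17 between the crosses (adjusted p = 0.018), with no overlap, and by -0.32 between the breeds (adjusted p = 0.346), and the difference between the crosses was called at 1% with the median signal, the deposited values and normexp correction (adjusted p down to 0.000351).

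**Figure D4:**
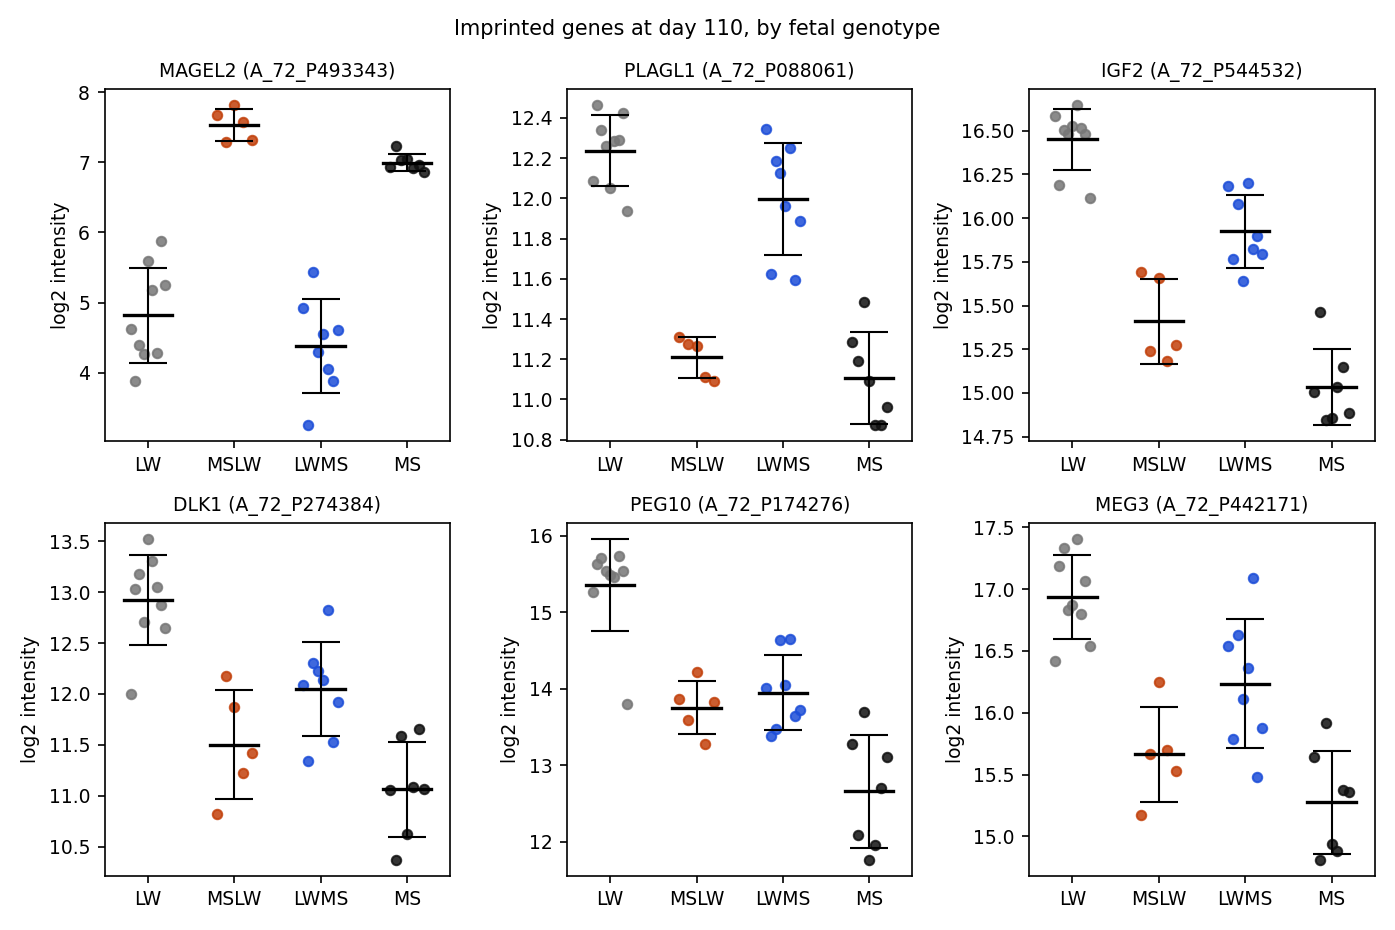
Log2 level of MAGEL2, PLAGL1, IGF2, DLK1, PEG10 and MEG3 (y axes) in the LW, MSLW, LWMS and MS fetuses of day 110 (x axes), with 1 point per fetus and a bar for the mean ± SD. For MAGEL2 the MSLW fetuses (7.29 to 7.82) sit with MS and the LWMS fetuses (3.25 to 5.44) with LW, whereas for PEG10 both crosses sit between LW and MS.

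Outside the imprinted genes, TNN, SLCO4A1 and PLEKHD1 were among the autosomal genes with the largest called differences. SLCO4A1, a transporter of thyroid hormone and other organic anions, was well above background in 5 of 5 MSLW and 0 of 8 LWMS fetuses, at least 2.51-fold higher in MSLW (adjusted p = 5.2e-08). Its MSLW fetuses read 5.74, 6.08, 4.72, 5.55 and 5.19 and its LWMS fetuses 1.64 to 3.82. PLEKHD1, a coiled-coil protein with a lipid-binding domain, read 6.31, 7.02, 6.21, 6.60 and 6.78 in MSLW and 3.31 to 4.99 in LWMS fetuses, a difference of 2.50 (SE 0.34, adjusted p = 7.35e-07). Both did not overlap, both were called at day 90 (1.80 and 1.95), and both followed the breed of the sow (-1.37 and -1.82 for MS less LW).

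HVCN1, the voltage-gated proton channel of immune cells, differed by 1.31 (SE 0.21, adjusted p = 5.51e-05) and TRAF6, a signal transducer of the toll-like receptors, by 1.66 (SE 0.35, adjusted p = 0.00333). For TRAF6 the MSLW fetuses read 11.55, 11.41, 10.81, 9.398 and 11.20, 1 of them inside the LWMS range of 8.93 to 9.43. TNN, a tenascin of the extracellular matrix, differed by 2.64 (SE 0.49, adjusted p = 0.000441) at day 110 and by 0.02 at day 90. DMBT1, a scavenger receptor of epithelia, was at least 1.83-fold higher in MSLW (adjusted p = 0.00347). STOX1 was well above background in 1 crossbred fetus, and BX915330.2 and TRO, with few fetuses well above background, are named only because the rule picked them.

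Lower in MSLW were LOXL4, MYL7, CHI3L1, SLC4A11 and SPEF2. LOXL4, an enzyme that cross-links collagen, was at 7.22, 6.33, 5.997, 6.28 and 6.86 in MSLW fetuses and between 7.38 and 8.71 in LWMS fetuses, without overlap (difference -1.24, SE 0.24, adjusted p = 0.00073). MYL7, the light chain of atrial myosin, was at 10.84, 9.75, 11.48, 10.22 and 9.59 in MSLW fetuses and between 10.30 and 13.31 in LWMS fetuses (difference -1.88, SE 0.43, adjusted p = 0.00698). CHI3L1, a secreted chitinase-like protein, differed by -2.02 (SE 0.39, adjusted p = 0.00105), with 1 of 5 MSLW and 7 of 8 LWMS fetuses well above background. The calls of LOXL4, MYL7, CHI3L1, SLC4A11, SPEF2, TNN, HVCN1, TRAF6 and DMBT1 were all lost with the 29 fetuses of day 110. They were also lost with the 13 crossbred fetuses alone, where 8 autosomal probes were called, all higher in MSLW. The calls of DMBT1, SLC4A11 and SPEF2 were lost with the median signal, the deposited values and normexp correction too. Over all alternatives their adjusted p reached 0.149, 0.0454 and 0.205 in that order. The calls of TRAF6, MYL7, SPEF2, DMBT1 and SLC4A11 were lost without single fetuses too. These were any 1 of 9 for SPEF2 (adjusted p up to 0.069) and MSLW replicate 2 for SLC4A11 (adjusted p = 0.015). For DMBT1 they were any 1 of 5 (MSLW replicates 2, 3 and 5 and LWMS replicates 3 and 6, adjusted p up to 0.0305). For MYL7 they were MSLW replicate 2, 4 or 5 or LWMS replicate 1, 3, 4, 6 or 8 (adjusted p up to 0.0345). For TRAF6 they were MSLW replicate 1, 2, 3 or 5 (adjusted p up to 0.0189). The call of MYL7 was also lost with the slide as a block (adjusted p = 0.0129).

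Genes of cell division had mostly positive differences, unevenly among the fetuses. Of 22 measured, 20 had a positive difference (median 0.58, against 0.01 and 53.8% positive over all genes) and 2 were called, where 1.23% of all genes were. They were CENPF, a kinetochore protein (1.28, SE 0.26, adjusted p = 0.00225), and MYBL2, a transcription factor of dividing cells (0.69, SE 0.15, adjusted p = 0.00353). CENPF was at 6.36, 6.67, 7.88, 7.03 and 6.31 in MSLW and at 4.37 to 6.37 in LWMS fetuses. TOP2A, a topoisomerase of dividing cells, differed by 1.15 (adjusted p = 0.0109). The mean of the list, as a difference from the mean of the 13 crossbred fetuses for each gene, was 1.28 in MSLW replicate 3, -0.29 to 0.43 in the other MSLW fetuses and -0.40 to 0.11 in LWMS fetuses. MSLW replicate 3 also had the highest means of the 13 for fibroblast markers (0.44) and extracellular matrix genes (0.36) and the lowest for fatty acid oxidation (-0.30) and nuclear respiratory chain genes (-0.22), and their part in the result was not tested. Without MSLW replicate 3 the median was 0.32 and no gene of the list was called. At day 90 the median was -0.04.

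Interferon-responsive genes and genes of amino acid stress also had mostly positive differences. Of 20 interferon genes 17 had a positive difference (median 0.49, beside 53.8% positive and a median of 0.01 over all genes). By its brightest probe 1 of the 20 was called, where 1.23% of all genes were: PSMB10, a subunit of the immunoproteasome (0.64, SE 0.14, adjusted p = 0.00534). GBP1, a guanylate-binding protein induced by interferon, was at least 2.59-fold higher in MSLW on 1 of its probes (adjusted p = 1.99e-06), where 5 of 5 MSLW and 0 of 8 LWMS fetuses were well above background. On its brightest probe the difference of GBP1 was 0.87 (adjusted p = 0.0129). The mean of the list was 0.0011 to 0.83 in MSLW and -0.68 to 0.29 in LWMS fetuses. Of 24 genes of amino acid synthesis and stress 19 had a positive difference (median 0.32), and PSPH, the last enzyme of serine synthesis, was called (1.16, SE 0.27, adjusted p = 0.00809), with MSLW fetuses at 9.92, 9.34, 10.38, 10.28 and 9.11 and LWMS fetuses at 7.57 to 9.82. Without MSLW replicate 4 the median of these 24 genes was 0.20 and none was called, and the calls of PSMB10 and PSPH were lost without MSLW replicate 1, 3 or 4, among others.

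**Figure D5:**
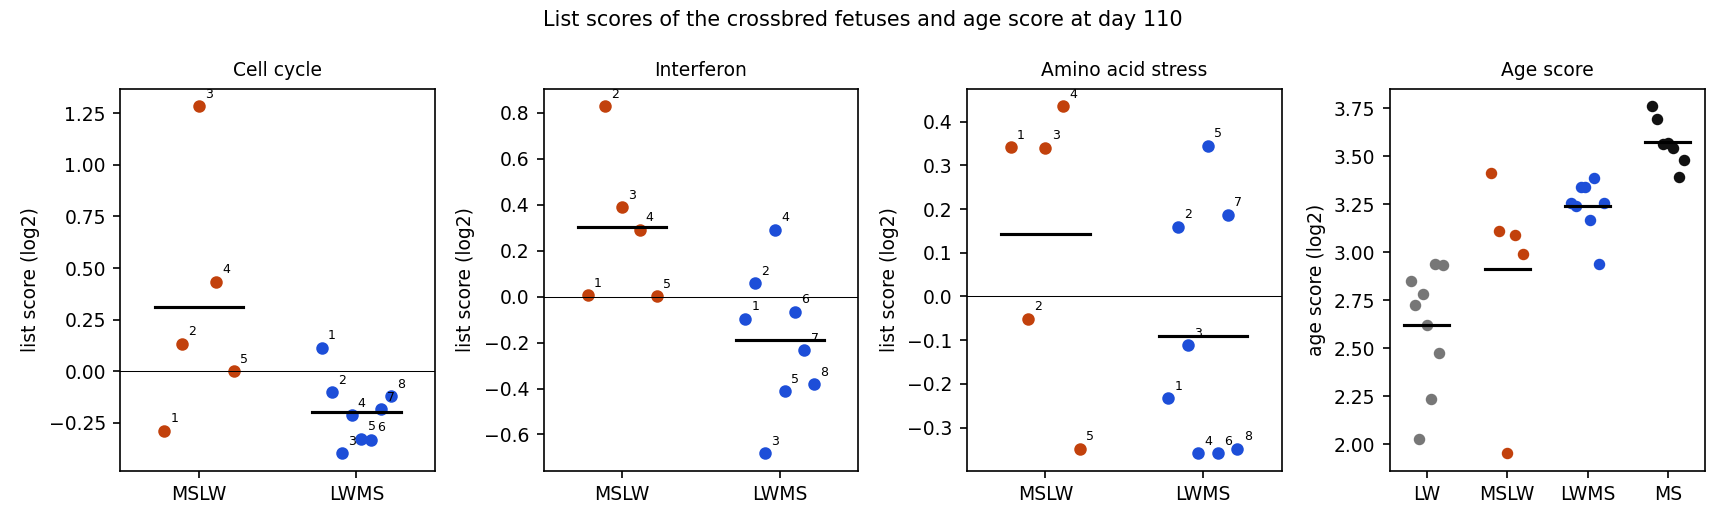
Mean log2 level of the cell cycle, interferon and amino acid stress genes in each crossbred fetus of day 110, as a difference from the mean of the 13 fetuses (y axes), with fetuses marked by their replicate number, and the age score (y axis) in the LW, MSLW, LWMS and MS fetuses of day 110. MSLW replicate 3 stands apart with the highest cell cycle mean (1.28) and the lowest age score (1.95).

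Lists of muscle and of energy metabolism were set beside the 1.23% of all genes that were called. No gene was called by its brightest probe among 18 of glycolysis (median 0.09), 22 of fatty acid oxidation (0.02), 21 of the sarcomere (0.03), 28 of the extracellular matrix (-0.03), 16 of the growth hormone and IGF axis (-0.07) and 16 myogenic factors (0.02). PHKA1 alone was called among 14 glycogen genes. Between MS and LW fetuses of the same day, 22 of the 30 nuclear respiratory chain genes, 12 of the 18 glycolysis genes and 10 of the 14 glycogen genes were called higher in MS, and 1, 1 and none were called lower. Over all genes 14.2% were called higher and 17.8% lower in MS. LDHA, which turns pyruvate into lactate, differed by 0.23 between the crosses (interval -0.15 to 0.61, adjusted p = 0.65) and by 1.12 between MS and LW. MYH3, the embryonic myosin heavy chain, differed by 0.04 (interval -0.44 to 0.53, adjusted p = 0.971) and by -2.87.

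CREM, a transcription factor that answers to cyclic AMP, was the single called gene among 17 of hormone response, where 1.23% of all genes were called. It was at 11.41, 11.11, 11.35, 11.10 and 11.07 in MSLW fetuses and between 10.39 and 10.97 in LWMS fetuses, without overlap (difference 0.52, SE 0.12, adjusted p = 0.00514). CREM followed the breed of the sow (-0.38 for MS less LW), and its call was lost without MSLW replicate 1 or 3 or LWMS replicate 3 or 8 (adjusted p up to 0.0298) and with the median signal, the deposited values, normexp correction, the 29 fetuses of day 110 or the 13 crossbred fetuses alone (adjusted p up to 0.0381). SORD, which turns sorbitol into fructose, had an adjusted p of 0.0173 on its brighter probe (difference 0.67, SE 0.17, fetuses at 7.25 to 8.33 against 6.64 to 7.36), and its other probe was called (0.63). MS fetuses were 0.76 above LW fetuses for SORD.

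The crosses were also set beside the course of gestation. An age score was taken from probes that rise or fall from day 90 to day 110 in both LW and MS fetuses. It was the mean of 2159 rising probes less the mean of 2971 falling probes. The changes with age that picked these probes were those of purebred fetuses. The spread used in their tests, the probe filter and the normalization drew on the crossbred fetuses too, so the choice of probes was not independent of them. The score was 1.95 to 3.41 (median 3.09) in MSLW and 2.94 to 3.39 (median 3.25) in LWMS fetuses. It was 2.03 to 2.94 (median 2.72) in LW and 3.39 to 3.76 (median 3.57) in MS fetuses, so that the medians of the crosses lay between those of the breeds while the lowest MSLW fetus was below every LW fetus. MSLW less LWMS was -0.33, and the exact two-sided permutation test over the 13 fetuses gave p = 0.0769. The crosses overlapped, and the lowest score belonged to MSLW replicate 3. Without that fetus the difference was -0.09, and without MSLW replicate 1 it was -0.46 (exact permutation test, p = 0.0162).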

How the data were processed

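The authors deposited the Agilent Feature Extraction output (version 10.10.1.1) of each 1-colour array, with the background-corrected intensity of every spot, together with quantile-normalized log2 values of 44368 spots. Here the deposited processed intensity was quantile normalized between the 61 arrays and log2 transformed, with non-uniform spots set to missing. Probes well above background on 80% of the arrays of a group were kept. Names and chromosomes came from the arrays, RefSeq (Sscrofa11.1) and the probe names of the study's lists, and 19378 kept probes stayed unnamed. Group means of the 8 groups were fitted per probe by limma 3.58.1 in R 4.3.3, with moderated two-sided tests, Benjamini-Hochberg adjustment over all kept probes and a 1% threshold. The scripts were tested on simulated data. The sow, a random effect in the study's model, was not used. The brightest kept probe stands for a gene. Where no array of 1 cross reached that mark, a lower bound replaces the fold change. Named were the 10 genes with the largest called difference in each direction, imprinted, mitochondrial and Y genes, genes the study discusses, called X genes, and members of the lists that were called or differed most. TGFBR3, ESR1, HOOK2, KRT2, SRPX2, ANGPTL1, RNU1-5, RPS4X and the probes shown were chosen after their values were seen. Some genes that the rule picks are not reported here. The comparison and lists were chosen with earlier results of these data known. Alternatives were another signal column, the deposited log2 values, normexp background correction, scaling to the 75th percentile, other filters, the slide as a block, fewer fetuses in the fit, no moderation, a 5% threshold and leaving out each crossbred fetus. The number of arrays limits the precision.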

Additional observations from a re-analysis of the deposited data

Results flagged for a closer look

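In 7 of 160 sets of values (4.38%) 1 fetus stood apart from the rest of its cross by its gap as a share of the range, where chance alone gives about 1 in 20. These were PHKA1 in LWMS replicate 8 (highest, gap 0.597 of the range), MBNL3 in LWMS replicate 1 (lowest, 0.557), UTY in MSLW replicate 1 (lowest, 0.748), CHI3L1 in LWMS replicate 2 (lowest, 0.583), HVCN1 in MSLW replicate 4 (highest, 0.73), GBP1 in LWMS replicate 3 (lowest, 0.563) and the age score in MSLW replicate 3 (lowest, 0.711).

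The difference between the crosses was not the same at day 110 as at day 90 for 14 probes, by limma's test of the change between the ages. It grew in favour of MSLW for TCEAL1 (change 0.852), GBP1 (2.647), RNU1-5, a small nuclear RNA of the spliceosome (1.345), and LOC100515118 on the X chromosome (0.4765, called at day 90 and not at day 110). It moved towards LWMS for PLAGL1 (-1.05 and -1.192 on its 2 probes), PLP2 (-0.7144, -0.7635 and -0.7326 on its 3 probes) and ANGPTL1, a secreted angiopoietin-like protein (-1.035). The probes without a name were A_72_P103176 (-1.443), A_72_P141681 (-1.173), A_72_P724813 (-3.846) and A_72_P785972 (-2.889). On the GBP1 probe no LWMS fetus of day 110 was well above background, so that the size of its change is not an exact measure.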

How the results depend on the processing

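No called gene or count changed direction under the alternatives run. The differences of H19, MYH3, NDN and the brightest COX1 probe, none of them called, changed sign under some. The count of probes called between the crosses at day 110 was 387 and moved to 83 with the 13 crossbred fetuses alone, 152 with the 29 fetuses of day 110 and 1076 at a 5% threshold. Leaving out a fetus in turn gave 238 to 473, the lowest without MSLW replicate 3. With the slide as a block the count was 551. Scaling to the 75th percentile in place of quantile normalization left 271 higher and 130 lower probes, where the share of higher probes was 67.6% in place of 59.4%, and the 13 crossbred fetuses alone gave 63 higher and 20 lower. The mitochondrial count of 30 moved to 19 with the 13 crossbred fetuses alone and lay between 27 and 32 without single fetuses. The X count of 65 moved to 19 with the 13 crossbred fetuses alone, 37 with the 29 fetuses of day 110 and 103 at 5%, and lay between 51 and 69 without single fetuses. At day 90 a 5% threshold gave 340 probes. The count for the difference between ages was 14 and moved to 9 with the median signal, 33 with the slide as a block and 64 at 5%. Of 37 named genes that were called, 12 remained with the 13 crossbred fetuses alone, 17 with the 29 fetuses of day 110, and 26 to 37 without single fetuses. The difference of the age score was -0.33 (exact permutation test, p = 0.0769) and -0.334 with the slide as a block. For the slide setting no p-value is given, because fetuses were not permuted within slides. The age score difference became -0.455 without MSLW replicate 1 (exact permutation test, p = 0.0162). Without LWMS replicate 7 it was -0.373 (exact permutation test, p = 0.029). Its range over single fetuses was -0.455 to -0.0907. Medians over single fetuses were 0.324 to 0.741 for cell cycle, 0.442 to 0.605 for interferon and 0.205 to 0.396 for amino acid stress genes. Fits on fewer fetuses estimate the spread from fewer arrays. For the other settings that moved a result the cause was not tested. Fetuses were not paired by replicate number, because replicate numbers are not in the labels and were given in accession order. The slide was used instead, as a block in the fit and for the differences within slides that held both crosses.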
